A study of Mus musculus with 45 samples.

Results

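Secreted and intracellular regulators of Wnt signalling were followed over 45 subcutaneous tumours of CT26, a BALB/c mouse colon carcinoma line. The 10 genes are Dkk2, Dkk3, Sfrp1, Sfrp2, Sfrp4, Wif1, Axin2, Nkd1, Rnf43 and Lgr5, taken by symbol from the 47729 genes of each expression table. The set was chosen by the expression values of Dkk2 and Sfrp2 in experiment T2106, in tumours given serplulimab plus 10 mg/kg HLX53 set against vehicle tumours. Values of that experiment against its vehicle tumours are therefore given as a description without a test.

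Wnt ligands bind Frizzled receptors and the coreceptors Lrp5 and Lrp6, which spares beta-catenin from degradation and lets it drive transcription with Tcf and Lef factors. Sfrp proteins and Wif1 bind Wnt ligands outside the cell, and Dkk2 acts on the Lrp coreceptors, while Dkk3 is a divergent Dickkopf family member. Axin2, Nkd1 and Rnf43 are switched on by beta-catenin and dampen the pathway in return, and Lgr5, an R-spondin receptor, is a Wnt target that marks intestinal stem cells. In mouse models of intestinal cancer Dkk2 is induced after loss of Apc and has been linked to reduced natural killer and CD8 T cell activity.

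All mice were HuGEMM animals in which PD-1 and TIGIT had been humanised by knock-in. Serplulimab and pembrolizumab are antibodies against PD-1, and HLX53 and tiragolumab are antibodies against TIGIT. Both receptors restrain T cells and natural killer cells. Dosing by intraperitoneal injection, 2 times a week, began on day 8 at tumour volumes of 90 to 100 mm3. T2106 held 18 tumours, 3 in each of 6 groups. Its mice received serplulimab, HLX53, pembrolizumab with tiragolumab, serplulimab with HLX53 at 5 mg/kg, serplulimab with HLX53 at 10 mg/kg, or vehicle. T2215 held 27 tumours, 3 in each of 9 groups. Its groups were serplulimab, pembrolizumab, HLX53, tiragolumab, serplulimab with HLX53, serplulimab with tiragolumab, pembrolizumab with HLX53, pembrolizumab with tiragolumab, and vehicle. Every antibody dose was 10 mg/kg apart from the 5 mg/kg group of T2106. All tumours came from a single cell line, and the human receptors stood in the host, not in the tumour cells. The sources used here state neither age nor sex of the mice.

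Dkk2 and Sfrp2, which head the set, both lie on chromosome 3 of the mouse genome (GRCm38). Dkk2 (ENSMUSG00000028031) spans chr3:132085292-132180304 and Sfrp2 (ENSMUSG00000027996) spans chr3:83766321-83774316, both on the plus strand. Axin2 (ENSMUSG00000000142), the feedback gene most often read as a Wnt target, spans chr11:108920349-108950783 on the plus strand. RefSeq promoter windows on GRCm38.p6, from 250 bases before to 50 after a start, were matched for 6 of the 10 genes: Dkk2, Sfrp2, Wif1, Axin2, Nkd1 and Rnf43. Windows for Dkk3, Sfrp1, Sfrp4 and Lgr5 were not used here. The windows of the main inhibitor that was low, the main inhibitor that was high and the target gene are shown, all on the plus strand, at chr3:132085042-132085341 for Dkk2, chr3:83766071-83766370 for Sfrp2 and chr11:108920099-108920398 for Axin2. Capitals mark the letters CTTTGA or CTTTGT, the core bound by Tcf and Lef factors, and TATAAA, the TATA box, searched on both strands.
Dkk2: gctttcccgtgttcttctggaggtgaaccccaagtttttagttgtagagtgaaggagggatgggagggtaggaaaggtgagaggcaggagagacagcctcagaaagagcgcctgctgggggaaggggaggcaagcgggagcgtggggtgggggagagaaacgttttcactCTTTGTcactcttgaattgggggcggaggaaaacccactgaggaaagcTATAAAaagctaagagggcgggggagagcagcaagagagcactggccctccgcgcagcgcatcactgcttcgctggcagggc
Sfrp2: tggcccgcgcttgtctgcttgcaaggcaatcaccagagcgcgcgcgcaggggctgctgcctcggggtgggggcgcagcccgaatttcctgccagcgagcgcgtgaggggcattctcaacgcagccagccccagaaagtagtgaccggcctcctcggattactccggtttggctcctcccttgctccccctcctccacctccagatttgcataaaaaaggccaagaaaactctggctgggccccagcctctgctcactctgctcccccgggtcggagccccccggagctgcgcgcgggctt
Axin2: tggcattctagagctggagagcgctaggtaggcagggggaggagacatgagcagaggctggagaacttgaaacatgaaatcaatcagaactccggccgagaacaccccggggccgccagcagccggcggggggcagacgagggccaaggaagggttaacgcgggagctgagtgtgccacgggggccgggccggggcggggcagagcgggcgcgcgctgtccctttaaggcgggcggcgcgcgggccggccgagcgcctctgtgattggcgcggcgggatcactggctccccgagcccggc
Dkk2 held CTTTGT at −80 and TATAAA at −32 from the start, and the windows of Sfrp2 and Axin2 held neither. These motifs were chosen after the windows were seen. Of 32851 RefSeq promoter windows of this length, 31.2% held CTTTGA or CTTTGT and 13.6% held TATAAA, so a match is common and describes letters only.

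Expression was read as FPKM, fragments scaled by transcript length and library size, which allows levels to be compared between genes. Between 12918 and 14448 genes per library stood at 0.5 FPKM or above, and depth in reads is unknown. The carcinoma label was checked on 10 epithelial genes. Krt20, a keratin of intestinal epithelium, had a median of 83.5 FPKM in T2106 and 84.2 in T2215. The other genes of the list were far lower. Medians in T2106 were 12.8 FPKM for Krt18, 2.2 for Krt19, 1.81 for Muc1, 1.6 for Krt8, 0.614 for Cdh1, 0.45 for Epcam and 0.167 for Cldn7. In T2215 they were 15.5, 6.99, 1.61, 5.35, 0.733, 1.12 and 0.521 FPKM in the same order. The intestinal markers Cdx2 and Vil1 did not pass the low-value filter, with Cdx2 at most 0.638 FPKM and Vil1 at most 0.138 FPKM in any tumour. Some tumours stood apart in markers of surrounding tissue. In T2215, serplulimab replicate 1 had a summed skeletal muscle signal of 15630 FPKM, and serplulimab with tiragolumab replicate 2 had a summed keratinocyte signal of 137 FPKM. In bulk tissue, fewer cells of a type and less RNA per cell cannot be told apart.

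The regulators ran over very different levels. In T2215 the median over all 27 tumours was 15.9 FPKM for Dkk2, 7.98 for Sfrp2, 1.55 for Sfrp1, 0.847 for Dkk3 and 0.402 for Sfrp4. The feedback genes were low, with medians of 0.298 FPKM for Rnf43, 0.201 for Axin2 and 0.078 for Nkd1. Wif1 and Lgr5 had medians of 0.0554 and 0.0272 FPKM. Only genes with at least 0.5 FPKM in at least 3 tumours were tested, and 7 of the 10 passed in each experiment: Dkk2, Dkk3, Sfrp1, Sfrp2, Sfrp4, Axin2 and Rnf43. Wif1, Nkd1 and Lgr5 did not pass, and their levels are given without a test. Sfrp4 passed in T2106 through 6 tumours. Axin2 passed through 4 tumours in T2106 and 3 in T2215, and Rnf43 through 5 in T2106 and 4 in T2215. For these genes the groups where they are high decided that they were tested.

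Dkk2 was lowest in the tumours treated with serplulimab and HLX53 in T2106. With HLX53 at 10 mg/kg its 3 tumours had 1.34, 4.69 and 0.908 FPKM, against 19.3, 15.3 and 19.5 FPKM in the vehicle tumours. All 3 treated tumours lay below all 3 vehicle tumours. The log2 difference was −2.96 ± 0.60 (SE from limma, on FPKM + 0.5), and as the contrast that drew attention to the gene it carries no test. With HLX53 at 5 mg/kg the tumours had 5.04, 1.56 and 12.6 FPKM, also all below the vehicle tumours. Of the tested members Dkk2 and Sfrp2 were without overlap in that contrast, as were 22.2% of all genes, and 1.02% of all genes passed the threshold. Serplulimab alone gave 7.83, 15.1 and 12.6 FPKM, below every vehicle tumour, and HLX53 alone 24.0, 7.49 and 7.71 FPKM. Pembrolizumab with tiragolumab gave 19.6, 23.0 and 21.5 FPKM, above every vehicle tumour. Without overlap with vehicle, in either direction, were 22.9% of all genes for serplulimab alone and 23.8% for pembrolizumab with tiragolumab. By group mean Dkk2 ran 2.31 ± 2.07 FPKM (SD, n = 3) for the 10 mg/kg pair, 6.39 ± 5.62 for the 5 mg/kg pair, 11.9 ± 3.71 for serplulimab, 13.0 ± 9.44 for HLX53 and 21.4 ± 1.71 for pembrolizumab with tiragolumab, with vehicle at 18.03 ± 2.35. Neighbours from the 10 mg/kg pair up to HLX53 overlapped in their tumours, as did HLX53 and vehicle, while pembrolizumab with tiragolumab and vehicle did not.

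Sfrp2 took the opposite course in the same tumours. With serplulimab and HLX53 at 10 mg/kg it had 84.3, 84.4 and 110.5 FPKM, against 0.0225, 3.38 and 0.0437 FPKM in the vehicle tumours. The groups did not overlap, and the log2 difference was 6.49 ± 1.34. The 5 mg/kg pair had 10.2, 88.5 and 4.35 FPKM, again above every vehicle tumour. Serplulimab alone gave 72.9, 2.74 and 1.47 FPKM, so a single tumour carried most of its mean. HLX53 alone gave 5.11, 0.00229 and 0.0743 FPKM, and pembrolizumab with tiragolumab gave 0.147, 0.0962 and 0.0213 FPKM, both overlapping vehicle.

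With serplulimab and HLX53 at 10 mg/kg in T2106 the other secreted inhibitors, like Sfrp2, lay above vehicle. Sfrp1 had 23.1, 8.42 and 18.2 FPKM with serplulimab and HLX53 at 10 mg/kg, against 0.137, 1.39 and 0.127 FPKM with vehicle, a log2 difference of 4.12 ± 0.94. Sfrp4 had 3.22, 7.67 and 8.24 FPKM in those treated tumours, against a vehicle tumour at 0.544 FPKM and the other two below 0.01 FPKM. Its log2 difference was 3.33 ± 0.76. Dkk3 had 10.0, 5.21 and 7.72 FPKM with the 10 mg/kg pair, against 0.442, 0.994 and 0.549 FPKM with vehicle (2.80 ± 0.79). Wif1 stayed low everywhere, at 0.386, 0.194 and 0.329 FPKM with the 10 mg/kg pair against at most 0.0468 FPKM with vehicle. All 7 tested members were without overlap in this contrast, as were 65.2% of all genes, and 44.0% of all genes passed the threshold. Since the contrast chose the set, nothing is read from that count of members. In the 5 mg/kg pair, unlike Sfrp2, Sfrp1, Sfrp4 and Dkk3 overlapped vehicle. Sfrp1 had 2.20, 16.4 and 0.684 FPKM there, Sfrp4 0.133, 4.76 and 0.0618 FPKM, and Dkk3 1.30, 18.3 and 0.439 FPKM. They also overlapped vehicle with serplulimab alone and with HLX53 alone. With pembrolizumab and tiragolumab Dkk3 had 0.289, 0.249 and 0.265 FPKM, below every vehicle tumour. Without overlap there, in either direction, were 23.8% of all genes.

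**Figure D1:**
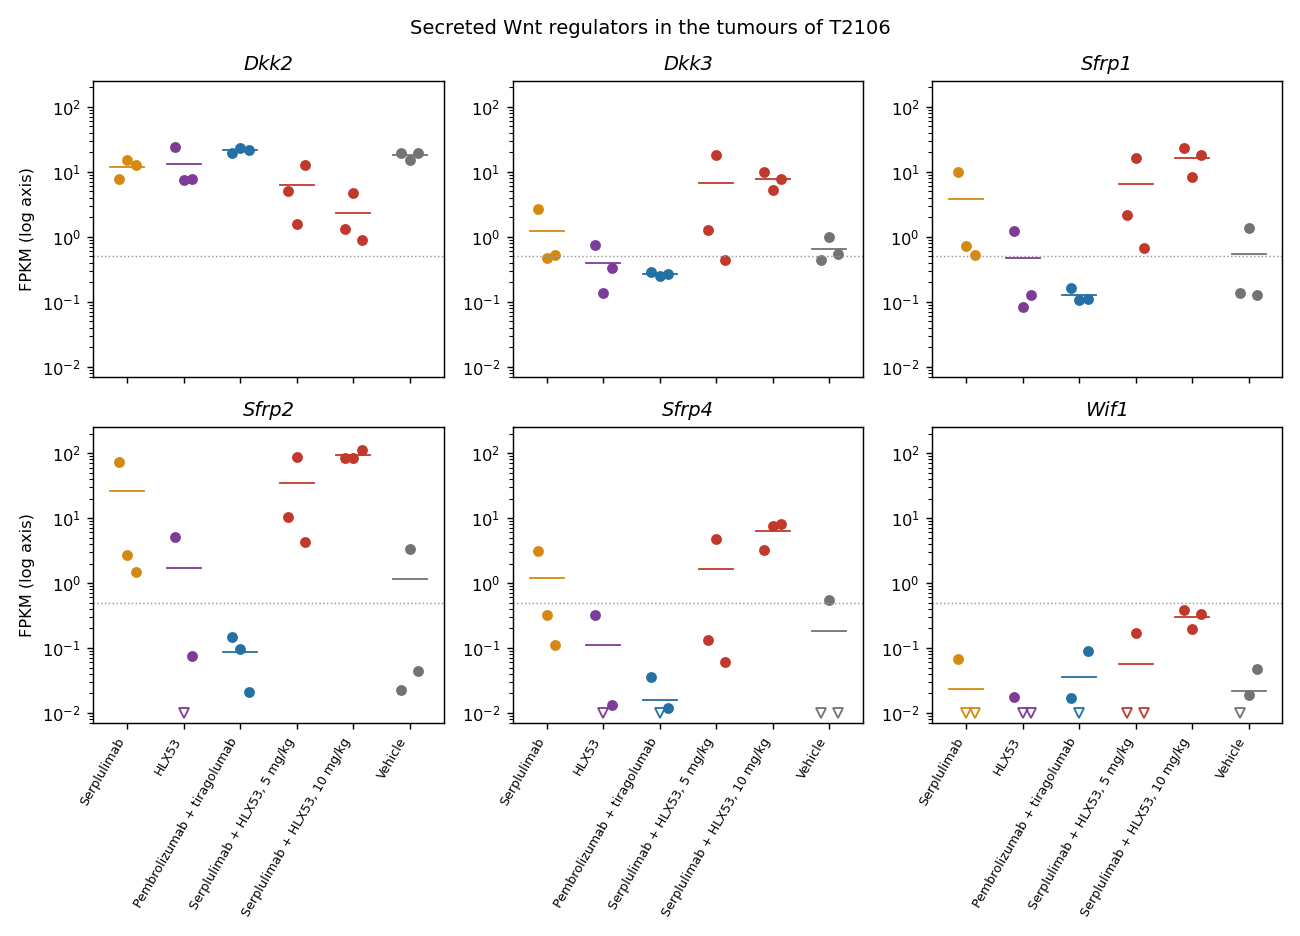
FPKM (log axis) of 6 secreted Wnt regulators in the 18 tumours of T2106, 1 point per tumour with the group mean as a bar, the filter of 0.5 FPKM as a dotted line and tumours below 0.01 FPKM as open triangles. Dkk2 is low in the serplulimab and HLX53 tumours at 10 mg/kg (0.908 to 4.69 FPKM), while Sfrp2 lies there between 84.3 and 110.5 FPKM, with vehicle at the right.

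Markers of connective tissue and fat moved with these genes in T2106. The summed level of 16 fibroblast and matrix genes was 4791 to 7151 FPKM with serplulimab and HLX53 at 10 mg/kg, against 1047 to 1447 FPKM with vehicle, and 15 of the 16 genes had a positive log2 difference. The summed level of 11 adipocyte genes was 1734 to 1973 FPKM in the treated tumours, against 80.0 to 412.7 FPKM with vehicle. Sums of 7 macrophage and monocyte genes were 6023 to 9652 FPKM in the treated tumours, against 1219 to 2069 FPKM with vehicle, and sums of 7 T cell genes were 55.1 to 139.2 FPKM against 29.2 to 37.7 FPKM with vehicle. Endothelial genes summed to 133.2 to 181.7 FPKM, against 43.9 to 77.1 FPKM with vehicle, and 14 cell cycle genes to 514.7 to 957.4 FPKM, against 1233 to 1251 FPKM with vehicle. Epithelial genes summed to 93.3 to 167.6 FPKM in the treated tumours and 103.7 to 137.6 FPKM with vehicle, a sum in which Krt20 weighs most. Their mean log2 score, which weighs genes equally, was 3.04 to 3.59 in the treated tumours, against 0.951 to 2.06 with vehicle, and 6 of 8 tested genes had a positive difference (median 2.29). Keratinocyte and skeletal muscle genes were low, at 10.6 to 11.6 and 4.77 to 9.14 FPKM in the treated tumours, against 1.32 to 1.99 and 2.60 to 4.24 FPKM with vehicle, and their defining genes Krt1, Lor, Acta1 and Myh4 did not pass the filter. In the 5 mg/kg pair the fibroblast sum spread over 1193 to 9938 FPKM. Replicate 2 of the 5 mg/kg pair held the highest Dkk3 of the experiment, 18.3 FPKM, and a summed skeletal muscle level of 67.1 FPKM, the highest of T2106. The part of these tissues in the gene differences was not tested.

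The 4 comparisons of T2106 that set neither the vehicle nor the 10 mg/kg pair tumours against another group were tested. Those tumours still entered the shared estimate of spread and the low-value filter, so the tests are not free of the values that chose the set. Serplulimab with HLX53 at 5 mg/kg was set against pembrolizumab with tiragolumab, a comparison of antibody pairs whose TIGIT doses differ, 5 against 10 mg/kg. Dkk2 differed by −2.04 ± 0.60 on the log2 scale, with means of 6.39 ± 5.62 FPKM for the serplulimab pair and 21.4 ± 1.71 FPKM for the pembrolizumab pair (SD, n = 3 each). Sfrp2 differed by 4.83 ± 1.34, Sfrp1 by 2.59 ± 0.94 and Dkk3 by 2.04 ± 0.79. None passed limma's test over all genes, with adjusted p = 0.136 for Dkk2, 0.136 for Sfrp2, 0.143 for Sfrp1 and 0.148 for Dkk3, although these 4 had an unadjusted p under 0.05. Of all genes 0.0398% passed, and 28.3% had an unadjusted p under 0.05. Dkk2, Dkk3, Sfrp1, Sfrp2 and Sfrp4 did not overlap between the groups, nor did 26.3% of all genes. Marker lists differed as well, with median log2 differences of 2.31 for T cell genes (7 of 7 higher), 1.90 for adipocyte genes (11 of 11 higher), 1.79 for fibroblast genes (15 of 16 higher) and −0.58 for cell cycle genes (0 of 14 higher), and no gene of these lists passed limma. Of the fibroblast genes 10 and of the adipocyte genes 9 had an unadjusted p under 0.05. The part of these tissues was not tested. Rnf43 was close to equal, at −0.04 ± 0.24 (95% interval −0.55 to 0.47).

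A single tumour decided these calls. Without serplulimab and HLX53 5 mg/kg replicate 3, the tumour with 12.6 FPKM of Dkk2 and 4.35 of Sfrp2, limma called Dkk2 (−2.69 ± 0.57), Dkk3 (2.92 ± 0.74), Sfrp1 (3.43 ± 0.96) and Sfrp2 (5.72 ± 1.45) against pembrolizumab with tiragolumab, with adjusted p from 0.0133 to 0.0223 by limma. Axin2 passed too, but it reached 0.5 FPKM in T2106 only in the 10 mg/kg pair and in a tumour of the group compared, so nothing is read from that. Over all genes the count was then 5769 (38.3%), against 6 with every tumour.

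Against HLX53 alone, the 5 mg/kg pair gave 0 called members by limma, with 3 of 7 at an unadjusted p under 0.05, where 0.00664% of all genes passed and 16.3% had such an unadjusted p. Sfrp2 differed by 3.83 ± 1.34 (adjusted p = 0.296 by limma), Sfrp1 by 2.14 ± 0.94 (adjusted p = 0.301) and Dkk3 by 1.87 ± 0.79 (adjusted p = 0.300). Without the same replicate 3 the count became 4, Dkk2, Dkk3, Sfrp1 and Sfrp2, while 2750 of all genes (18.2%) were called, against 1 with every tumour. Against serplulimab alone the 5 mg/kg pair gave 0 called members by limma and 0 at an unadjusted p under 0.05, as did serplulimab alone against HLX53 alone. No gene of the whole table passed in either of those comparisons (0%).

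T2215 was not used to choose the set and covered all combinations of the antibodies. In the serplulimab and HLX53 tumours Dkk2 had 13.7, 1.99 and 15.6 FPKM, against 6.17, 18.7 and 20.7 FPKM with vehicle. The groups overlapped, with a single treated tumour far below the rest. The log2 difference was −0.75 ± 0.64 (adjusted p = 0.471 by limma). Group means of Dkk2 lay between 10.4 ± 6.25 FPKM with pembrolizumab and HLX53 and 20.6 ± 1.98 FPKM with tiragolumab, around 15.2 ± 7.86 FPKM with vehicle (SD, n = 3 each).

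Sfrp2 had 54.2, 143.9 and 21.6 FPKM with serplulimab and HLX53 in T2215, against 24.3, 21.0 and 1.37 FPKM with vehicle. A treated tumour lay between the vehicle tumours. The log2 difference was 2.48 ± 1.67 (95% interval −0.99 to 5.96, adjusted p = 0.385 by limma). In the other HLX53 groups a single tumour carried the mean. HLX53 alone had Sfrp2 at 0.250, 99.2 and 2.46 FPKM, and pembrolizumab with HLX53 had 100.8, 7.98 and 6.72 FPKM. Tiragolumab alone was the lowest group, with 0.232, 3.69 and 0.159 FPKM.

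Sfrp1 had 10.0, 28.6 and 1.54 FPKM with serplulimab and HLX53, against 4.16, 1.55 and 0.417 FPKM with vehicle (2.05 ± 1.11, adjusted p = 0.314 by limma). The groups overlapped through the treated tumour at 1.54 FPKM. Dkk3 had 5.91, 10.2 and 0.953 FPKM with that pair, against 1.01, 1.41 and 0.490 FPKM with vehicle. Its log2 difference of 1.71 ± 0.66 had the smallest p of the 7 members (unadjusted p = 0.0170, adjusted p = 0.242 by limma).

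Sfrp4 stood out in the serplulimab tumours of T2215, at 39.1, 0.0701 and 22.0 FPKM, against 1.07, 1.65 and 0.0143 FPKM with vehicle. Its log2 difference did not pass with all tumours. Without serplulimab replicate 2, the tumour at 0.0701 FPKM, Sfrp4 was called at 4.63 ± 1.33 (adjusted p = 0.0381 by limma), among 1395 genes in all (9.35%). Serplulimab replicate 1, the tumour at 39.1 FPKM, is the one rich in skeletal muscle and had a fibroblast sum of 7347 FPKM. Wif1 was below 0.5 FPKM in all 27 tumours, with 0.190, 0.481 and 0.000635 FPKM in the serplulimab and HLX53 tumours and at most 0.0475 FPKM with vehicle.

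**Figure D2:**
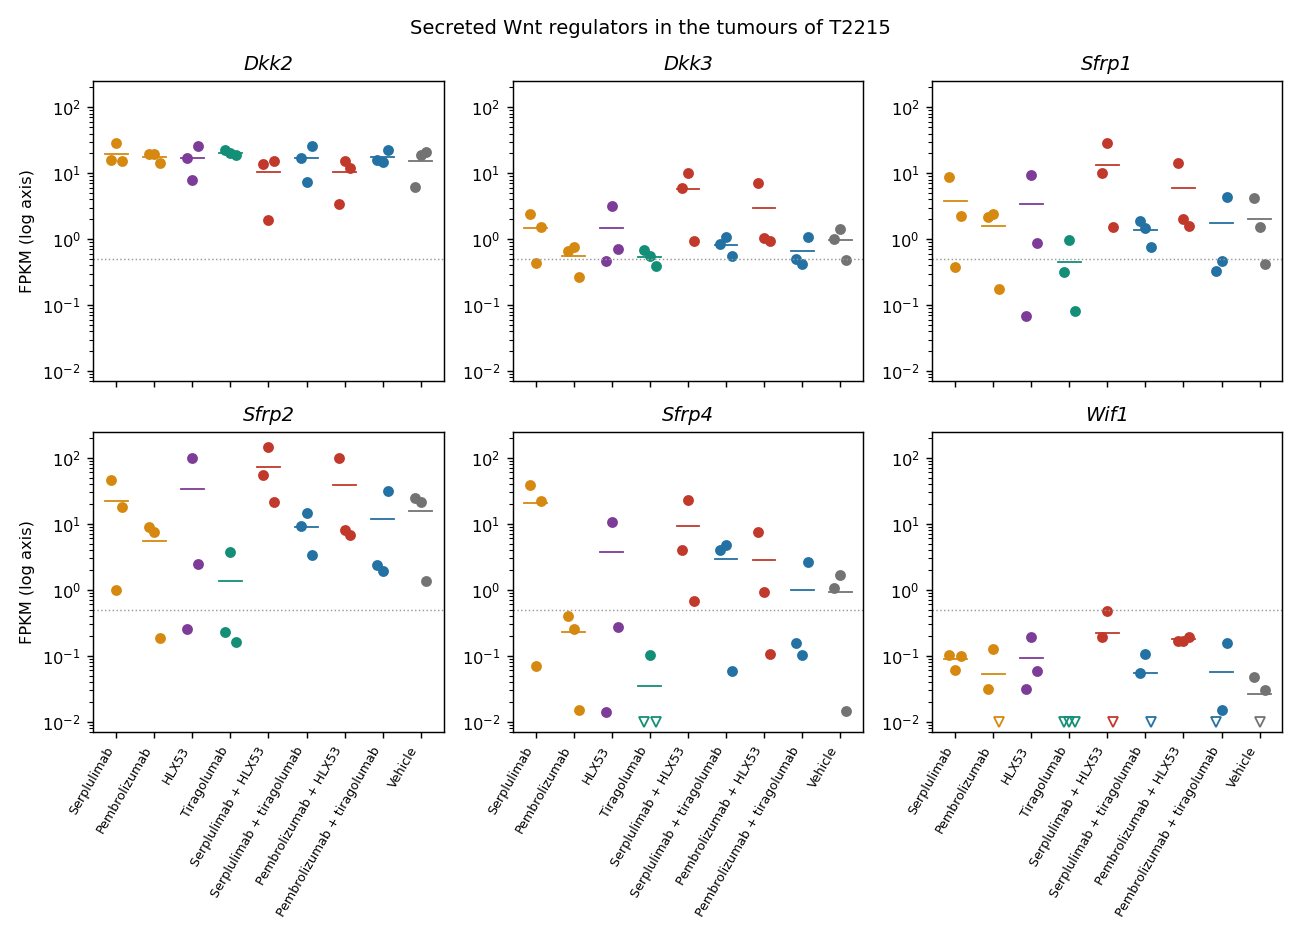
FPKM (log axis) of the 6 secreted Wnt regulators in the 27 tumours of T2215, drawn as for T2106 with vehicle at the right. Within the HLX53 groups the points spread widely, Sfrp2 from 0.250 to 143.9 FPKM, and the tumour with the highest Sfrp2 has the lowest Dkk2, 1.99 FPKM.

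None of the 13 tested comparisons of T2215 called a member, by limma over 14914 genes. In pembrolizumab with HLX53 against vehicle 0.00671% of all genes passed, and 0 members had an unadjusted p under 0.05. In serplulimab with HLX53 against vehicle 0% of all genes passed, and 1 of 7 members, Dkk3, had an unadjusted p under 0.05, against 18.3% of all genes. In any TIGIT antibody against none, where 0.0134% of all genes passed, Rnf43 alone of the members had an unadjusted p under 0.05, as did 6.62% of all genes. Rnf43, a ubiquitin ligase that removes Frizzled receptors, averaged 0.386 ± 0.175 FPKM over 18 tumours given a TIGIT antibody and 0.220 ± 0.0825 FPKM over 9 given none (0.28 ± 0.11, adjusted p = 0.747 by limma). Rnf43 reached 0.5 FPKM in 4 of the 18 tumours and in 0 of the 9, so nothing is read from its p. In serplulimab groups against pembrolizumab groups, where 0% of all genes passed, Sfrp4 alone of the members had an unadjusted p under 0.05, as did 9.51% of all genes. It averaged 10.8 ± 13.9 FPKM with serplulimab and 1.35 ± 2.48 FPKM with pembrolizumab (SD, 9 tumours each; 2.01 ± 0.83, adjusted p = 0.504 by limma). Any PD-1 antibody against none and the interaction of the antibody classes had 0 members at an unadjusted p under 0.05.

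The TIGIT antibodies were compared over 9 HLX53 tumours and 9 tiragolumab tumours at the same dose. Sfrp2 ran from 0.250 FPKM over a median of 21.6 to 143.9 FPKM in the HLX53 tumours, against 0.159, 3.42 and 31.5 FPKM in the tiragolumab tumours. The 4 highest HLX53 tumours lay above every tiragolumab tumour, and the rest overlapped. The log2 difference was 2.21 ± 0.96 (adjusted p = 0.168 by limma). Dkk3 had 0.461, 1.05 and 10.2 FPKM as lowest, median and highest with HLX53, against 0.395, 0.551 and 1.09 FPKM with tiragolumab (1.22 ± 0.38, adjusted p = 0.155). Sfrp1 had 0.0684, 2.05 and 28.6 FPKM with HLX53, against 0.0814, 0.766 and 4.42 FPKM with tiragolumab (1.61 ± 0.64, adjusted p = 0.157). These ranges overlapped at the low end.

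Dkk2 had 1.99, 13.7 and 25.8 FPKM as lowest, median and highest with HLX53, against 7.42, 18.6 and 26.3 FPKM with tiragolumab. Its log2 difference was −0.75 ± 0.37 (95% interval −1.52 to 0.01, adjusted p = 0.192 by limma). Rnf43 averaged 0.472 ± 0.178 FPKM with HLX53 and 0.301 ± 0.129 FPKM with tiragolumab (SD, 9 tumours each; 0.27 ± 0.12, adjusted p = 0.173). Rnf43 reached 0.5 FPKM in 3 HLX53 tumours and 1 tiragolumab tumour, so nothing is read from its p. Axin2 and Sfrp4 differed by 0.28 ± 0.16 and 1.18 ± 0.83. In all, 0 members passed, against 0% of all genes. An unadjusted p under 0.05 was found for 4 of 7 members, Dkk3, Sfrp1, Sfrp2 and Rnf43, against 26.6% of all genes. Since Rnf43 is among them, nothing is read from this count. The fibroblast sum was 1053 to 8899 FPKM (median 2622) with HLX53, against 1268 to 2574 FPKM (median 1703) with tiragolumab. Of the 16 fibroblast genes 15 had a positive difference and 0 passed limma, with 3 at an unadjusted p under 0.05. Median log2 differences were 1.22 for T cell genes (7 of 7 higher), 0.89 for adipocyte genes (11 of 11 higher), 0.79 for the fibroblast genes, 0.73 for epithelial genes (7 of 8 higher), −0.35 for cell cycle genes (0 of 14 higher) and −0.77 for skeletal muscle genes (0 of 7 higher), and no gene of these lists passed. The part of these tissues in the differences was not tested.

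**Figure D3:**
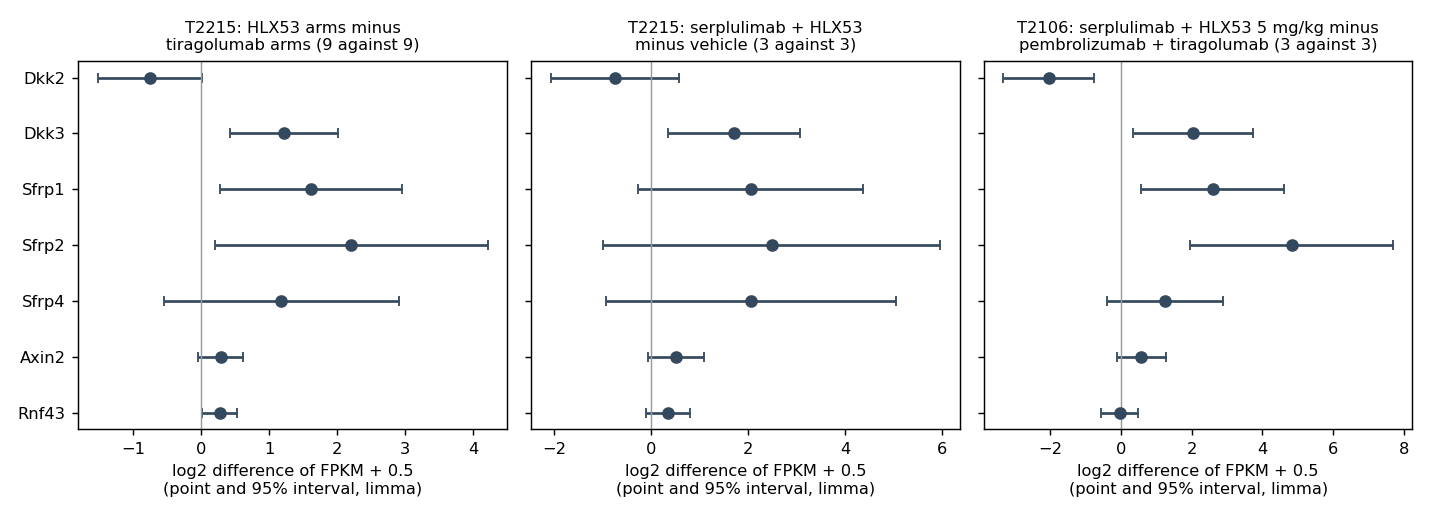
Log2 differences of FPKM + 0.5 with 95% intervals from limma for the 7 tested members in 3 tested comparisons, the horizontal axes differing in scale. Sfrp2 lies furthest to the right (2.21, 2.48 and 4.83), and the points of Dkk2 lie left of 0 (−0.75, −0.75 and −2.04). The points of Rnf43, mostly under 0.5 FPKM, lie closer to 0, where the added 0.5 understates differences. In HLX53 against tiragolumab groups the interval of Dkk2 reaches 0. That of Rnf43 lies above 0, but nothing is read from it, since mostly HLX53 tumours took Rnf43 past the filter.

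The feedback genes were low. The highest Axin2 of T2106, 1.34 FPKM, came in serplulimab with HLX53 5 mg/kg replicate 2, where Sfrp2 was 88.5 FPKM, and the highest of T2215, 0.929 FPKM, in serplulimab with HLX53 replicate 2, where Sfrp2 was 143.9 FPKM. Axin2, a scaffold of the beta-catenin destruction complex, had 1.08, 0.951 and 0.677 FPKM with serplulimab and HLX53 at 10 mg/kg in T2106, against 0.130, 0.266 and 0.178 FPKM with vehicle. These groups did not overlap, nor did those of 65.2% of all genes. In T2215 the same treatment gave 0.384, 0.929 and 0.254 FPKM, against 0.227, 0.148 and 0.201 FPKM with vehicle. Every treated tumour lay above every vehicle tumour there too. Without overlap in either direction were 24.0% of all genes, and the difference of 0.51 ± 0.27 did not pass (adjusted p = 0.310 by limma).

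Nkd1, which binds Dishevelled, had 0.363, 0.395 and 0.494 FPKM with the 10 mg/kg pair of T2106, against 0.0208, 0.0812 and 0.0215 FPKM with vehicle. The groups were apart, though no tumour of T2106 reached 0.5 FPKM. In T2215 the serplulimab and HLX53 tumours had Nkd1 at 0.135, 0.643 and 0.108 FPKM, against 0.140, 0.108 and 0.0696 FPKM with vehicle, and these overlapped. Lgr5 was highest at 0.124 FPKM in T2106 and 0.172 FPKM in T2215, both in serplulimab and HLX53 tumours, and was far below the filter in every group. Rnf43 ran from 0.173 to 0.796 FPKM in T2106 and from 0.102 to 0.819 FPKM in T2215, with the highest T2106 value in a pembrolizumab and tiragolumab tumour whose Sfrp2 was 0.147 FPKM. In T2106 the 10 mg/kg pair had Rnf43 at 0.772, 0.350 and 0.688 FPKM, against 0.173, 0.238 and 0.335 FPKM with vehicle, without overlap. Pembrolizumab with HLX53 in T2215 had 0.501, 0.446 and 0.641 FPKM, against 0.365, 0.228 and 0.214 FPKM with vehicle, also without overlap, and the difference of 0.42 ± 0.21 did not pass (adjusted p = 0.736 by limma). Of all genes 65.2% were without overlap in the T2106 contrast and 12.7% in that of T2215. The 4 tumours that took Rnf43 past the filter in T2215 had all been given a TIGIT antibody, so nothing is read from this. Reads of Axin2 and Sfrp2 cannot be told apart from those of their antisense neighbours Gm11670 and Gm26771, since the sources used here do not say whether strand was used in counting. Nkd1, Rnf43 and Lgr5 also overlap other annotated genes.

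**Figure D4:**
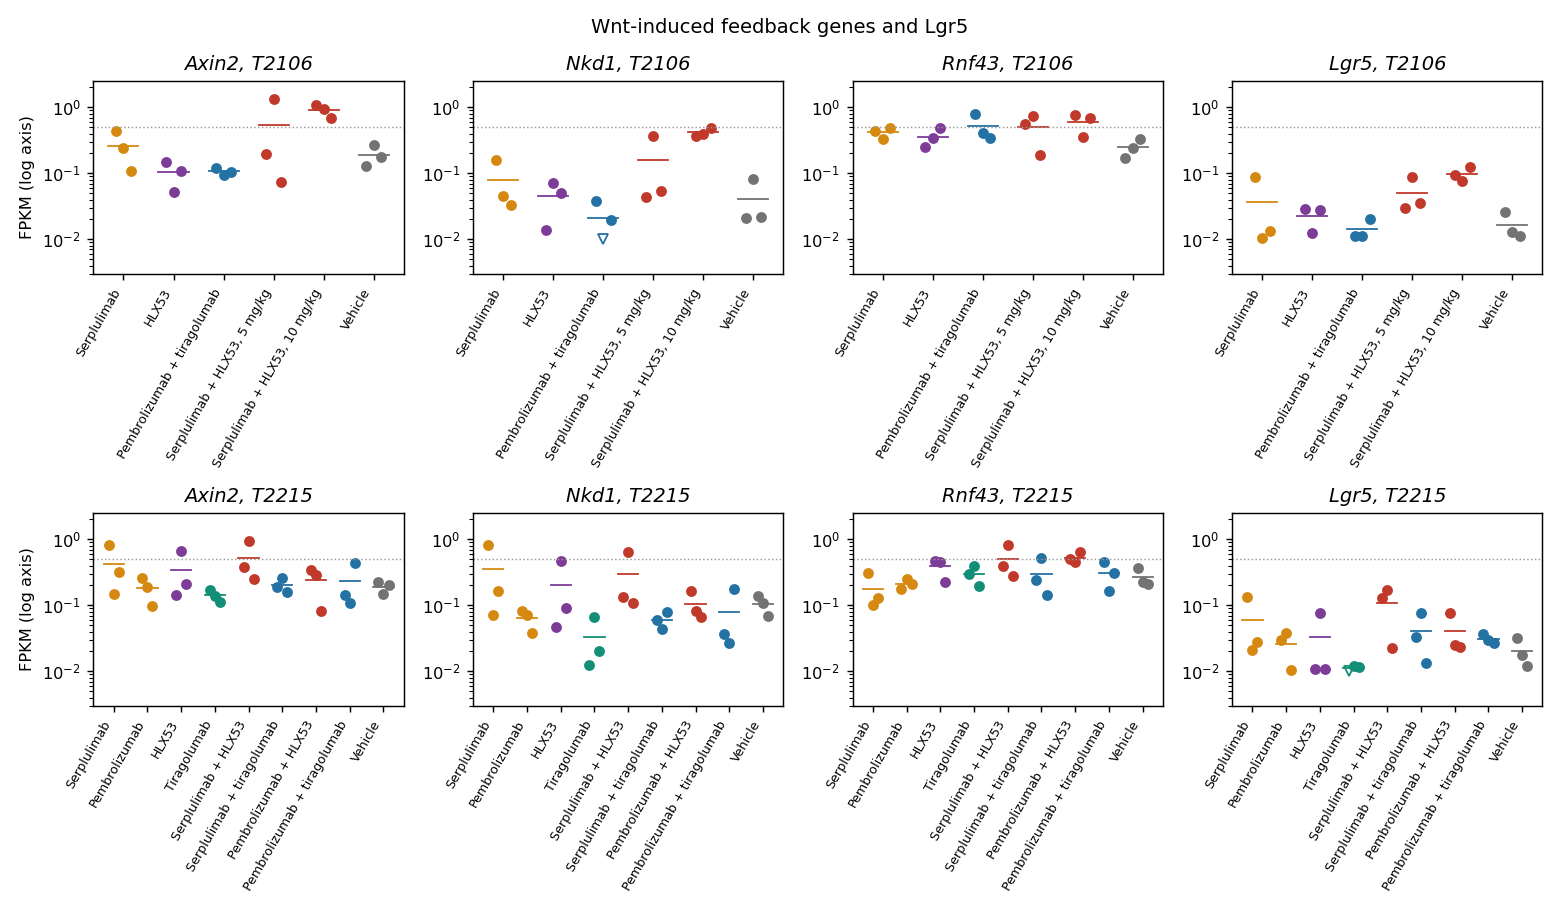
FPKM (log axis) of Axin2, Nkd1, Rnf43 and Lgr5 in T2106 (upper row) and T2215 (lower row), 1 point per tumour with group means as bars, the filter of 0.5 FPKM dotted, open triangles for tumours below 0.01 FPKM and vehicle at the right. With serplulimab and HLX53 at 10 mg/kg in T2106, Axin2 lies between 0.677 and 1.08 FPKM and Nkd1 between 0.363 and 0.494 FPKM, a 5 mg/kg tumour has the highest Axin2 (1.34 FPKM), and most other values lie below the dotted line.

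Across the 27 tumours of T2215 the Sfrp genes followed the fibroblast and matrix genes, whatever the treatment. Scores were the mean log2(FPKM + 0.5) of a marker list that holds none of the members, and 21 relations were tested together by permutation. Sfrp2 gave r = 0.93 and rho = 0.96 with the fibroblast score, and 2.02% of all genes had an r as high. Sfrp1 gave r = 0.94 (rho = 0.89), Sfrp4 0.90 (0.93), Dkk3 0.89 (0.92) and Axin2 0.89 (0.85). For each of these r and rho the permutation p was 1e-05, which is the smallest possible with 100000 resamples (adjusted p = 2.1e-05). Axin2 passed the filter through 3 tumours, all with a fibroblast score above 7. Nothing is therefore read from its r or rho over all 27 tumours, with any score. Leaving out the 2 tumours most distant from the median score gave r = 0.94 for Sfrp2, 0.92 for Sfrp1, 0.84 for Sfrp4, 0.88 for Dkk3 and 0.82 for Axin2.

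The relations of Sfrp2, Sfrp1, Sfrp4 and Dkk3 held within groups. There r of the deviations from group means was 0.93 for Sfrp2, 0.94 for Sfrp1, 0.91 for Sfrp4 and 0.89 for Dkk3, with 0.89 for Axin2. They also held without the 4 tumours whose fibroblast score was above 7, a limit chosen after seeing the data. Those tumours were serplulimab replicate 1, HLX53 replicate 2, serplulimab with HLX53 replicate 2 and pembrolizumab with HLX53 replicate 1. Over the other 23 tumours r was 0.94 for Sfrp2, 0.87 for Sfrp1, 0.79 for Sfrp4 and 0.80 for Dkk3, each with an adjusted permutation p of 4.2e-05. Axin2 gave 0.76 but was under 0.5 FPKM in all of these 23 tumours, so nothing is read from its r there either. Relations to the fibroblast score are common in these tumours, since 25.3% of all genes had r above 0.5 and 29.2% had r below −0.5. With the adipocyte score r was 0.90 for Sfrp4, 0.87 for Sfrp1, 0.82 for Sfrp2 and 0.74 for Dkk3, with adjusted permutation p of at most 5.25e-05. Axin2 gave 0.88 over the 27 tumours, from which nothing is read.

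Dkk2 ran against the fibroblast score, but the relation rested on those 4 tumours. Over all 27 tumours r was −0.64 (permutation p = 0.0005, adjusted p = 0.000656) and rho was −0.46 (adjusted permutation p = 0.0204), and 18.2% of all genes had an r as low. Without the 2 farthest tumours r was −0.60, and without the 4 tumours r was −0.27 (permutation p = 0.205, adjusted p = 0.270). Of the 4, Dkk2 was at 15.9 FPKM in the serplulimab tumour and at 8.03, 1.99 and 3.45 FPKM in the HLX53 tumours. With the cell cycle score, 14 genes of dividing cells, Dkk2 gave r = 0.65 (adjusted permutation p = 0.000902, rho = 0.56). Without the 2 farthest tumours that r was 0.25, and without the 4 tumours it was 0.062 (adjusted permutation p = 0.791, rho = 0.40).

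The relations of the other members to the cell cycle score rested on the same 4 tumours. Dkk3 gave r = −0.82, Sfrp1 −0.74, Axin2 −0.73, Sfrp4 −0.70, Sfrp2 −0.68 and Rnf43 −0.55, all with an adjusted permutation p of at most 0.00361. Over the other 23 tumours these were −0.48, −0.28, −0.17, −0.32, −0.34 and −0.24, with adjusted permutation p from 0.0540 to 0.511. For rho, Axin2 did not pass even with all tumours (−0.36, adjusted permutation p = 0.0770). Rnf43 followed the fibroblast score weakly, with r = 0.42 (adjusted permutation p = 0.0304), rho = 0.33 (adjusted permutation p = 0.0963) and r = 0.062 without the 4 tumours. In T2106 libraries stood apart, so no correlation over its tumours is given.

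**Figure D5:**
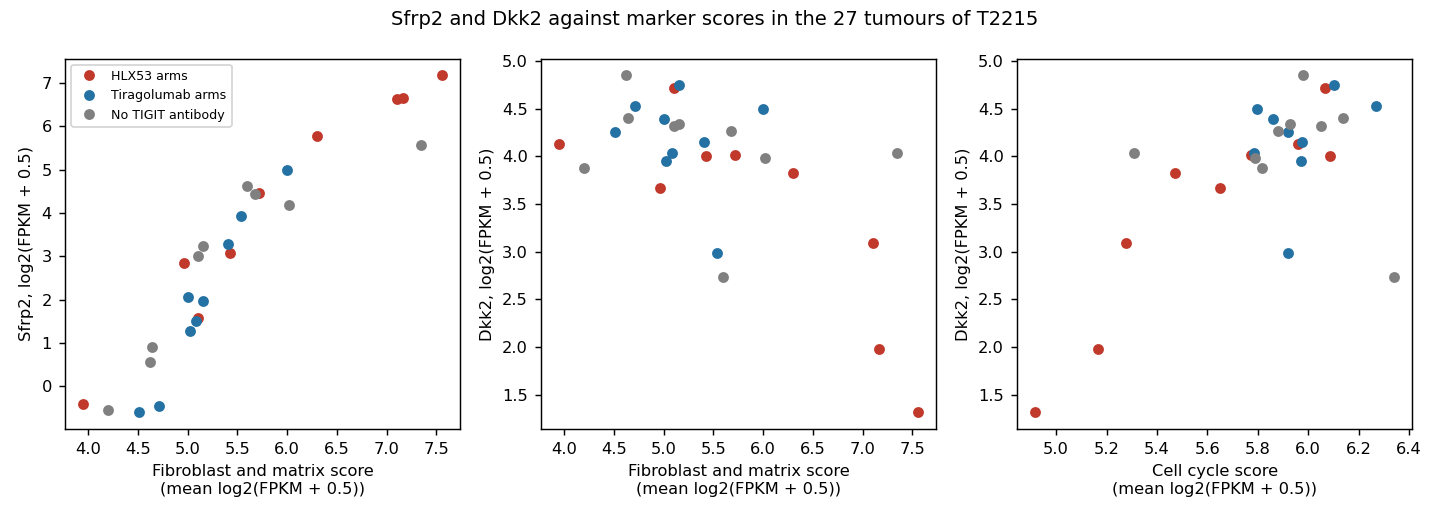
Sfrp2 and Dkk2 as log2(FPKM + 0.5) against the fibroblast and matrix score, and Dkk2 against the cell cycle score, in the 27 tumours of T2215, coloured by TIGIT antibody. Sfrp2 climbs with the fibroblast score through the whole range (r = 0.93), while the 2 lowest Dkk2 values (1.99 and 3.45 FPKM) belong to HLX53 tumours, with r = −0.27 once the 4 tumours above a score of 7 are left out.

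As a description over the same 27 tumours, Dkk2 had a negative r with each of the 6 other tested members, from −0.54 with Axin2 to −0.74 with Dkk3. Sfrp1 and Sfrp2 had r = 0.95, and Dkk3 and Sfrp1 had r = 0.92. The genes most like Dkk2 were Nefl, a neurofilament (r = 0.93), Osbpl6, an oxysterol-binding protein (0.91), Cpe, a carboxypeptidase of prohormone processing (0.91), Dlg3, a scaffold protein (0.90), and Nes, the intermediate filament nestin (0.90). Those most like Sfrp2 were the chemokine Cxcl12 (0.97), the chemerin gene Rarres2 (0.97), the cytochrome Cyp1b1 (0.97), the matricellular gene Wisp2 (0.96) and the collagen crosslinker Loxl1 (0.96). Those most like Axin2 were Adcy5, an adenylyl cyclase (0.95), Cnn1 and Lmod1, smooth muscle actin-binding genes (0.95 and 0.95), Klhdc7a (0.95) and the mitochondrial carrier Slc25a23 (0.94). All these values share libraries, and most Axin2 values lie under 0.5 FPKM. The genes listed as most like Axin2 also had medians under 0.5 FPKM. Their medians were 0.175 FPKM for Adcy5, 0.110 for Cnn1, 0.156 for Lmod1, 0.0678 for Klhdc7a and 0.416 for Slc25a23. Nothing is therefore read from their r with Axin2.

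The rest of the pathway was read on a list of 89 Wnt genes, of which 62 were tested in T2106 and 63 in T2215. None rose and none fell past the threshold by limma in any of the 17 tested comparisons. At most 0.0398% of all genes passed in any of these comparisons, so nothing is read from that about the list. Between 0 and 23 of the list genes had an unadjusted p under 0.05. The 23 came in serplulimab with HLX53 5 mg/kg against pembrolizumab with tiragolumab, 11 higher and 12 lower, where 28.3% of all genes had such a p. In HLX53 against tiragolumab groups 15 of 63 did, 9 higher and 6 lower, against 26.6% of all genes. None of the 4 R-spondin genes passed the low-value filter.

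In the T2106 contrast of serplulimab and HLX53 10 mg/kg with vehicle, described without a test, 17 of 62 list genes had a log2 difference of at least 1 and 5 of at most −1. Of all genes 17.5% and 6.40% did. Among ligands Wnt5a, a mostly non-canonical Wnt, averaged 3.55 ± 1.52 FPKM in the treated tumours and 0.422 ± 0.109 FPKM with vehicle (SD, n = 3 each; log2 difference 2.06 ± 0.65). Wnt10a, the most abundant ligand, averaged 19.3 ± 13.6 FPKM in the treated tumours and 64.2 ± 5.77 FPKM with vehicle (−1.92 ± 0.81). In T2215 the same treatment gave Wnt5a 1.69 ± 0.863 FPKM, against 0.653 ± 0.239 FPKM with vehicle (0.86 ± 0.40, adjusted p = 0.267 by limma). Wnt10a had 46.8 ± 29.8 FPKM, against 55.5 ± 18.4 FPKM with vehicle (−0.50 ± 0.48, adjusted p = 0.516 by limma).

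Of 15 tested receptors and coreceptors 5 had a difference of at least 1 and 1 of at most −1, with a median of 0.03 against −0.04 over all genes. Of 6 other targets tested 0 had a difference of at least 1 and 2 of at most −1 (median −0.74). The examples that follow are those with the largest differences. The receptor Fzd1 averaged 13.3 ± 5.30 FPKM with the 10 mg/kg pair of T2106 and 1.43 ± 0.428 FPKM with vehicle (2.77 ± 0.66), and Fzd4 averaged 6.70 ± 0.673 FPKM against 1.21 ± 0.366 FPKM with vehicle (2.09 ± 0.53). The Wnt5a receptor Ror2 averaged 1.31 ± 0.307 FPKM in the treated tumours and 0.0984 ± 0.0718 FPKM with vehicle (1.59 ± 0.50). Ccnd1, the cyclin that drives entry into the cell cycle, averaged 130.8 ± 63.3 FPKM against 303.9 ± 17.95 FPKM with vehicle (−1.32 ± 0.44). Myc averaged 40.8 ± 5.99 FPKM against 85.7 ± 21.9 FPKM with vehicle (−1.04 ± 0.40). In T2215 the differences were 1.20 ± 0.76 for Fzd1, 0.65 ± 0.66 for Fzd4, 0.93 ± 0.49 for Ror2, −0.94 ± 0.38 for Ccnd1 and −0.32 ± 0.24 for Myc, none past the threshold (adjusted p from 0.246 to 0.538 by limma).

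Across the 27 tumours of T2215, 9 of 11 tested ligands had r above 0.5 with the fibroblast score, among them Wnt2 (0.92) and Wnt11 (0.89). Of these 9, 7 had a median under 0.5 FPKM and so were tested only through the tumours where they are high, and nothing is read from their count. Wnt10a (−0.78) and Wnt10b (−0.64) had r below −0.5. Their medians were 62.6 and 1.33 FPKM.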

How the data were processed

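Total RNA of each CT26 tumour was sequenced as 150-base paired reads, per the labels' protocols. STAR, Bowtie, Trimmomatic and FastQC appear in the submitters' processing notes beside the builds mm10, hg19 and GRCh37, with no roles. The sources used here do not name the quantifier. The authors deposited log2 FPKM values, a table per experiment, normalised separately, so the experiments were not fitted or tested together. Genes without reads carry values down to −26.8 on that log2 scale.

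Deposited values were converted to FPKM, and log2(FPKM + 0.5) was tested in R 4.3.3 using limma 3.58.1 with a variance trend (lmFit, contrasts.fit, eBayes), which understates changes of genes near 0.5 FPKM. Genes at 0.5 FPKM or more in at least 3 tumours were tested, 15070 in T2106 and 14914 in T2215, with all groups of an experiment in a fit and Benjamini-Hochberg adjustment over all genes at a threshold of 0.05. The procedure was tested on simulated data. Of 17 tested comparisons 13 were in T2215. Differences with ± in brackets after a log2 value carry SE. Group averages, factorial contrasts and the interaction used group means with equal weight. Correlations used two-sided permutation tests of 100000 resamples, scipy 1.17.1, adjusted over 21 relations. Read depth is unknown, so no counting interval is given. P-values measure the spread between tumours.

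The rule for named genes took the 10 members, per role up to 3 list genes with the smallest p past the threshold (there were none) and up to 3 with the largest absolute T2106 difference from vehicle, and the 5 genes most like Dkk2, Sfrp2 and Axin2, leaving out gene models named Gm or Rik and receptor segments. Of the list genes taken for serplulimab with 10 mg/kg HLX53, 7 are described. Wnt11 and Wnt10b were named after their values were seen. Members and lists were chosen with earlier results of these data known. The 9 marker lists covered fibroblasts and matrix, adipocytes, epithelium, keratinocytes, skeletal muscle, endothelium, T cells, macrophages and cell cycle. Coordinates are those of GENCODE M21 on GRCm38, matched by gene identifier. Alternatives were pseudocounts of 0.1 and 1, no filter, a filter at 1 FPKM, median centring, only the groups compared, the replicate number as a block and leaving out each tumour.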

Additional observations from a re-analysis of the deposited data

Results flagged for a closer look

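Dkk2 lay on opposite sides of vehicle with serplulimab alone in the 2 experiments. On the log2(FPKM + 0.5) scale the serplulimab tumours of T2106 lay −1.15, −0.24 and −0.49 from the mean of their vehicle tumours. The serplulimab tumours of T2215 lay 0.24, 1.05 and 0.18 from the mean of theirs. The mean difference of T2106 minus that of T2215 was −1.11. Every treated tumour lay below its vehicle mean in T2106 and above it in T2215, which is what marked the result. The direction in T2215 rests on vehicle replicate 1, whose Dkk2 was 6.17 FPKM, against 18.7 and 20.7 FPKM in the other vehicle tumours. Without it, an alternative chosen after seeing the data, the T2215 serplulimab tumours lay −0.30, 0.52 and −0.35 from the vehicle mean, their mean difference was −0.04, and the difference between the experiments was −0.58. The difference between the experiments was not tested, since the tables were normalised separately.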

How the results depend on the processing

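Of the recomputed counts of called members 305 were unchanged and 3 were not, each of the 3 after leaving out a tumour. In serplulimab with HLX53 5 mg/kg against HLX53 the count ran from 0 to 4, and against pembrolizumab with tiragolumab from 0 to 5, both highest without serplulimab and HLX53 5 mg/kg replicate 3. In serplulimab against vehicle of T2215 it ran from 0 to 1, the highest without serplulimab replicate 2. The alternative pseudocounts, filters, centring and group choices changed no count of called members. Replicate numbers did not pair the tumours: same-numbered tumours deviated from their group means with a median correlation of −0.0259 in T2106 (−0.683 to 0.624) and −0.0385 in T2215 (−0.739 to 0.723), and with the replicate block the count of called members was 0 in all 17 comparisons. The 110 recomputed T2106 differences of Dkk2 and Sfrp2 from vehicle moved by less than 1 SD.

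Judged on r, 95 of the recomputed correlations kept their direction and their side of the threshold. The other 10 lost their call without the 4 tumours whose fibroblast score was above 7. Their r was then −0.27 for Dkk2 and 0.062 for Rnf43 with the fibroblast score, −0.42 for Dkk2 with the adipocyte score, and, with the cell cycle score, 0.062 for Dkk2, −0.48 for Dkk3, −0.28 for Sfrp1, −0.34 for Sfrp2, −0.32 for Sfrp4, −0.17 for Axin2 and −0.24 for Rnf43. This alternative, and one without the 3 tumours richest in skeletal muscle genes, which lost no call on r but lost that on rho of Sfrp1 with the cell cycle score (adjusted permutation p = 0.0788), were chosen after seeing the data. The cause was not tested. With 3 tumours a group the intervals are wide, and read depth, which limits Axin2, Nkd1, Lgr5 and Wif1 most, is unknown.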
